A study of Mus musculus with 12 samples.

Results

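ZBTB43 peaks that hold no alternating purine-pyrimidine tract were taken from the peak lists of an in vitro affinity sequencing experiment. In the list made on unmethylated DNA of TKO ES cells, 515 of 14554 autosomal peaks were of this kind, or 3.54% (95% Wilson interval 3.25 to 3.85%). In the list made on lung DNA methylated with M.SssI, they were 2290 of 169284, or 1.35% (1.30 to 1.41%). A peak was placed here when its mm10 sequence held no run of 12 bp or more in which purines and pyrimidines strictly alternated. Runs made of A and T alone were not counted as tracts. The rule used the sequence and no measured value. The lists were treated separately.

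In the experiment, full-length ZBTB43 fused to maltose-binding protein (MBP) and made in E. coli was immobilised on beads and incubated with sheared mouse DNA, and MBP alone served as the background. TKO DNA came from a single clone of male ES cells of genotype Dnmt1-/- Dnmt3a-/- Dnmt3b-/-, which lack the DNA methyltransferases, so that its CpGs carried no methylation. SssI DNA came from the lung of wild-type C57BL/6N males aged 2 months and was methylated at CpGs in vitro after shearing. Each of these 4 combinations of protein and DNA had 2 libraries, and the duplicates were pooled before peaks were called, so each DNA is represented by 1 list and no value below has a replicate error. Both DNAs were naked and the protein was recombinant, so the lists describe contact between protein and DNA outside the cell. The source of DNA and its methylation changed together between the lists and cannot be told apart.

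ZBTB43 belongs to the family of proteins that join a BTB domain, through which the proteins pair, to C2H2 zinc fingers, which read DNA bases in the major groove. Alternating purine-pyrimidine sequence, of which (CA)n is the common form in mammals, can turn from the right-handed B form into left-handed Z-DNA. A minisatellite is a tandem array whose unit is longer than that of a microsatellite, and both kinds tend to vary in length between strains. The tracts were read here from the C57BL/6J reference, so a tract gained or lost in the DNA used would not be seen, and this was not tested.

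The sequence of the members that scored highest is shown first, because it carries the main observation: arrays of a unit that is not a (CA)n tract, in which a few short words recur. A GTGTG or CACAC core is in each array shown except that on chromosome 11. Capitals mark 3 6-mers taken from the word counts described below. They are CACACT, which reads AGTGTG on the other strand, then GTGCAA, which reads TTGCAC there, and GTGTAA, which reads TTACAC, and all sequences are the plus strand of mm10, 5′ to 3′. The first 4 are exact tandem stretches inside TKO or SssI members within genes, in introns of Ptpro, Prmt3, Qrsl1 and Plcz1, and the next 3 come from other members among the 5 highest of a list.
Ptpro, chr6:137406606-137406648: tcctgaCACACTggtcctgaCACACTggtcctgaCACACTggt
Prmt3, chr7:49853350-49853419: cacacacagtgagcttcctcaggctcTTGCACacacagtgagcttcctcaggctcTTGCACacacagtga
Qrsl1, chr10:43889761-43889830: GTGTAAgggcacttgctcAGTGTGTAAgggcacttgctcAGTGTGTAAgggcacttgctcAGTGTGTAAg
Plcz1, chr6:140035483-140035614: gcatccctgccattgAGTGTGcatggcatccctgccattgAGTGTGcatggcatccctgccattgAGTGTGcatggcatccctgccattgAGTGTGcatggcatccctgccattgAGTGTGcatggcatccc
1700045H11Rik, chr4:150848178-150848227: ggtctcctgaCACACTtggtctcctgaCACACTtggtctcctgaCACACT
intergenic, chr16:92934015-92934113: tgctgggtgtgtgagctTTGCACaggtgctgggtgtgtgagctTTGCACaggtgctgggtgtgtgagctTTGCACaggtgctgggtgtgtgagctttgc
intergenic, chr11:80269324-80269406: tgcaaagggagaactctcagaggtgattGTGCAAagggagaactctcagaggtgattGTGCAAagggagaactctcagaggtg

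The score of a peak is the whole number in the fifth column of its list, which the peak caller derives from the −log10 q-value, so that it rises with significance against MBP and not with fold enrichment alone. Scores of the TKO and SssI lists are not on a common scale. A score and that of its counterpart, given here and below, do not compare the strength of capture between the DNAs. In TKO DNA, the member in an intron of Ptpro, a receptor tyrosine phosphatase, lay at chr6:137406337-137406823, scored 3946 and ranked 3 of all autosomal peaks. It held 8 copies of CACACT or AGTGTG, all 8 in the same orientation, and its SssI counterpart scored 1934. The member in an intron of Prmt3, a protein arginine methyltransferase, was the highest-scoring member of the SssI list (chr7:49853072-49853655, score 2327, rank 17). Its TKO counterpart (chr7:49853084-49853648) scored 3941 and ranked 4, and both peaks covered the same array of 29-bp units.

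The member in an intron of 1700045H11Rik (chr4:150847926-150848491) scored 3932 with a 17-bp unit, and an intergenic member at chr8:124348366-124349046 scored 3772. The latter shows an imperfect array, in which a CACACT core returns with changed bases around it, over 160 bp of its length.
chr8:124348626-124348785: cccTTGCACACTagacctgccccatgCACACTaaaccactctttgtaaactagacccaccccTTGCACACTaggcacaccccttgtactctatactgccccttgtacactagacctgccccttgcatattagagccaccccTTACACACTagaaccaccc

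After the Prmt3 member, the SssI members next by score were at chr10:43889318-43890203 in Qrsl1, a subunit of the mitochondrial glutamyl-tRNA amidotransferase, with 2306, and at chr16:92933597-92934217, intergenic, with 2292. They were followed by chr6:140035219-140036071 in Plcz1, the sperm phospholipase that activates the egg, with 2268, and by intergenic chr11:80269132-80269676 with 2240. All 5 had a TKO counterpart that was itself a member, with scores from 1086 to 3941. The Qrsl1 and Plcz1 members held 15 and 20 copies of CACACT, each in a single orientation, whereas the members on chromosomes 16 and 11 held none and carried TTGCAC or GTGCAA in each full unit shown.

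A member shared the highest score of the whole TKO list with a peak that holds a tract. It lay at chr18:39099120-39099728 in an intron of Arhgap26 and scored 4234, with a longest alternating run of 7 bp. It had no exact repeat of 20 bp, but 46 of 50 bases matched at a shift of 37 bp.

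Tandem repeats were the commonest sequence among the members. An exact tandem repeat of at least 20 bp and 2 units, with units of 1 to 60 bp, was present in 342 of 515 TKO members (66.4%, interval 62.2 to 70.4%) and in 1344 of 2290 SssI members (58.7%, 56.7 to 60.7%). Windows of the members' median width, 297 and 194 bp, were laid on a fixed grid of 1 window per 20 kb of the autosomes, and those without a tract served for comparison. Of them, 8.16% and 5.62% held such a repeat. Peaks with a tract held one more often than the members, in 88.8% of TKO and 91.5% of SssI peaks with a tract. When arrays with changed bases were counted too, taken as 38 matches in 50 bases at a shift of 7 to 100 bp, the shares were 80.8% of TKO members and 70.8% of SssI members, against 9.08% and 6.50% of the windows. These intervals cover counting error over peaks only, and here as below no test was made.

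The repeats were mostly of the minisatellite kind. Among TKO members with an exact repeat, 330 had a unit over 6 bp, with a median unit of 27 bp (quartiles 17 and 35), a median stretch of 87 bp and a longest stretch of 460 bp. Units up to 6 bp were found in 12 TKO members. Among SssI members, 1128 had a unit over 6 bp, with a median of 23 bp (14 and 35) and a median stretch of 72.5 bp, and 216 had a unit up to 6 bp. Units over 6 bp also led in 43.6% of TKO peaks with a tract and in 12.8% of SssI peaks with a tract. Such arrays were therefore not limited to members in either list.

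**Figure D1:**
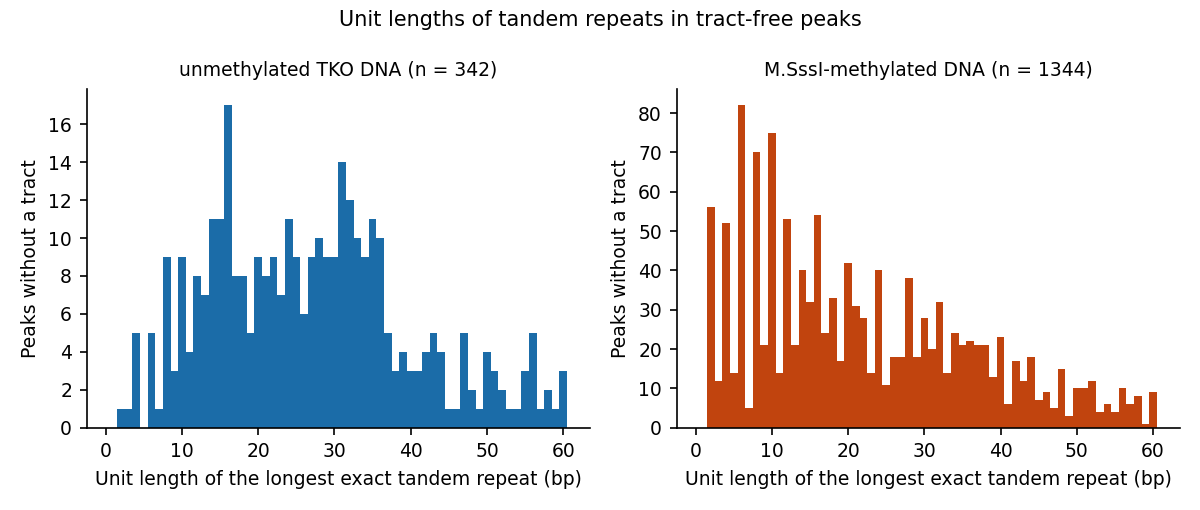
Unit length in bp (x axis) of the longest exact tandem repeat in peaks without a tract, as the number of peaks (y axis), for the 342 TKO members (left) and the 1344 SssI members (right) that hold one of at least 20 bp. TKO members have few units up to 6 bp, where the SssI members show separate columns.

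Members were then sorted into 5 classes, each taking what the earlier ones left. A short-unit repeat came first, then a long-unit repeat (exact unit over 6 bp, or an imperfect array), an alternating stretch of 16 bp with 1 break, a tract within 100 bp of an edge, and none of these. Of the TKO members, 404 (78.4%) were long-unit repeats, 12 short-unit repeats, 16 interrupted tracts and 13 had a tract near the edge, and 70 (13.6%) had none of these. Of the SssI members, 1405 (61.4%) were long-unit repeats, 216 (9.43%) short-unit repeats, 170 (7.42%) interrupted tracts and 82 (3.58%) had a tract near the edge, and 417 (18.2%) had none of these.

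Long-unit repeats had the highest median score of the 5 classes in both lists. They were also the widest, with a median of 339 bp in TKO DNA against 190 to 241 bp in the other classes. In SssI DNA the median width was 249 bp against 130 to 166 bp, and the part of width in the scores was not tested. In TKO DNA the median score of the long-unit repeats was 443 (quartiles 114 and 1371), against 252.5 for short-unit repeats, 155.5 for interrupted tracts, 132 for members with a tract near the edge and 117 for members with none of these. The upper quartile of the 12 TKO short-unit repeats was higher, at 1559. In SssI DNA the medians were 101, 49, 60, 49 and 82 in the same order, and the upper quartile of the long-unit repeats was 567. The classes overlapped widely, since the highest score of a class was between 1305 and 4234 in TKO DNA and between 1625 and 2327 in SssI DNA.

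The words that set the members apart from ordinary sequence were counted without regard to repeats. All 6-mers, each pooled with its reverse complement, were ranked by their density in members over that in windows without a tract, among those present in at least 10% of members. In TKO members AGTGTG, the reverse complement of CACACT, came first, with 15.8 copies per kb against 0.675 in the windows, a ratio of 23.4. In SssI members it took place 3, with 11.0 copies per kb and a ratio of 16.4, after ACACAC with 19.3 and GCACAC with 19.2. Of the 10 leading 6-mers of each list, 6 were the same.

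CACACT was present in 399 of 515 TKO members (77.5%, interval 73.7 to 80.9%) and in 1363 of 2290 SssI members (59.5%, 57.5 to 61.5%). In equal windows on the midpoints, of the median member width, 76.7% of TKO members, 67.7% of TKO peaks with a tract and 17.7% of grid windows without a tract held it. The same shares for SssI DNA were 58.5%, 39.3% and 11.9%. At least 3 copies were found in 56.9% of TKO members, 36.5% of TKO peaks with a tract and 0.219% of the windows, and in SssI DNA in 29.8%, 4.54% and 0.0825%. The word was also common under peaks with a tract.

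Longer words showed what surrounded the core. Among 8-mers, CACACTCA led in TKO members, present in 219 of them (42.5%) against 1.58% of the windows, and stood second in SssI members (697, or 30.4%, against 1.05%). It was more frequent still in TKO peaks with a tract, at 49.5%, but not in the SssI peaks with a tract that were counted, every 20th of them, at 17.2%. First in SssI members was ACACAGAC, present in 306 (13.4%), against 1.23% of the windows and 13.8% of the counted SssI peaks with a tract. ACAGACAC, GACACAGA, CACAGACA, CAGACACA and AGACACAG were also among the 10 leading 8-mers of SssI members but not of TKO members. Only 4 of the 10 leaders were the same in both lists. GTGTGTAA was present in 113 TKO members (21.9%) and GTGTGCAA in 157 (30.5%), against 0.859% and 0.786% of the windows. One or both of this pair occurred in 46.6% of TKO members and 25.9% of SssI members. They occurred in 1.63% and 1.04% of the windows, and in 26.7% and 12.9% of the peaks with a tract.

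Copies lay near the peak midpoints. In TKO members the density of CACACT was highest in the 20-bp bin at -10 bp, at 23.1 copies per kb, and was 3.30 per kb at 390 bp on either side. In SssI members it was highest at 10 bp, at 14.9 per kb, and fell to 1.59 per kb at the same distance. The lists give no summit, so the midpoint stood in its place.

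**Figure D2:**
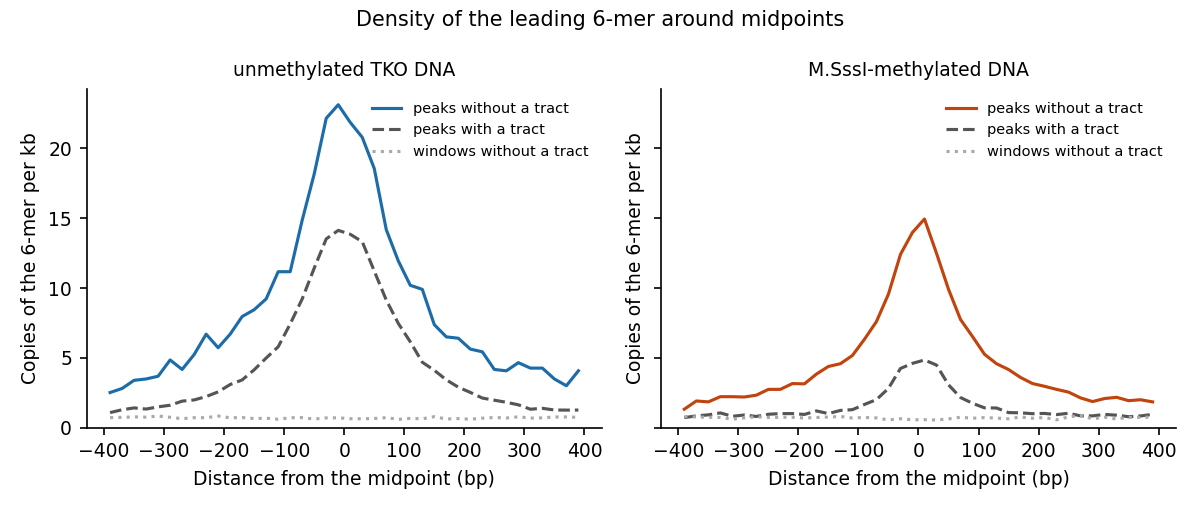
Copies of CACACT or AGTGTG per kb (y axis) in 20-bp bins by distance in bp from the midpoint (x axis), for TKO DNA (left) and SssI DNA (right). The solid line is peaks without a tract, the dashed line peaks with a tract and the dotted line grid windows without a tract. The members' line is the highest in both panels and peaks within 10 bp of the midpoint.

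The copies in a member mostly ran the same way. A tandem array repeats its unit in 1 direction, so copies in an array share an orientation by construction. Among members with at least 3 copies, 251 TKO and 532 SssI members were long-unit repeats, and 6 and 25 were short-unit repeats. Of 289 TKO members with at least 3 copies, 245 (84.8%, interval 80.2 to 88.5%) had every copy in the same orientation, and of 705 such SssI members 602 (85.4%, 82.6 to 87.8%). In exact long-unit repeats, the median distance between successive copies was within 1 bp of the unit length in 122 of 210 TKO members (58.1%) and in 250 of 453 SssI members (55.2%).

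Members without CACACT often held a related word. Of 116 TKO members without it, 68 (58.6%) held GTGCAA or GTGTAA on either strand, compared with 18.6% of windows without CACACT. Of 927 such SssI members, 209 (22.5%) held one, compared with 12.6% of the windows. Altogether 467 of 515 TKO members (90.7%) and 1572 of 2290 SssI members (68.6%) held at least 1 of these 3 words, against 32.8% and 22.4% of windows. The 48 TKO members and 718 SssI members with none had median scores of 71 and 49. These words were chosen from the members' own counts, so the shares describe the lists and are no independent check of them. GTGCAA and GTGTAA were picked from the 10 leading TKO 6-mers by their letters, a first GTG and a last AA. They stood at places 8 and 10 in TKO members and 18 and 22 in SssI members, below words that were passed over.

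Members in which no repeat passed these limits held the words as well. Of the 99 TKO members that were neither short-unit nor long-unit repeats, 91.9% held CACACT, and of the 669 such SssI members 80.6%. In the members with none of the classified features, the pair of 8-mers was present in 59 of 70 in TKO DNA (84.3%) and in 237 of 417 in SssI DNA (56.8%), compared with 38.1% and 17.5% of the long-unit repeats. The sequences below are the densest 160 bp of the highest-scoring such members, and of the highest-scoring TKO member with a tract near its edge. The Scg3 stretch still resembles a degenerate array, with 36 of 50 bases matching at a shift of 57 bp, just under the limit of 38.
Scg3 intron, chr9:75672262-75672421: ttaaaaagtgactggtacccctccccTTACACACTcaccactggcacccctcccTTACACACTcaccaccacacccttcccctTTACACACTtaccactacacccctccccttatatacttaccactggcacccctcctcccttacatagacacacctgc
intergenic, chr1:187435391-187435550: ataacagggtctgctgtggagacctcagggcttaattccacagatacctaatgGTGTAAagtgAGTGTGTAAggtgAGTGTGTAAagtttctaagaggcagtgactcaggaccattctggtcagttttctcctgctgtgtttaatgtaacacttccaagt
Lmx1a intron, chr1:167758716-167758875: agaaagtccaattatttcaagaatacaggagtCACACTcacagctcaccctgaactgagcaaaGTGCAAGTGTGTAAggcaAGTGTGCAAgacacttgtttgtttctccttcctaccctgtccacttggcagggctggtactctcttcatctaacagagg

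The member in Scg3, a protein of neuroendocrine secretory granules, scored 3334 in TKO DNA and ranked 29, with 3 copies of CACACT, and its SssI counterpart scored 1504. The intergenic member at chr1:187435291-187435651 was the highest of the unclassified SssI members, with a score of 1804, and its TKO counterpart scored 1536. The member in Lmx1a, a LIM-homeodomain transcription factor, scored 1305 in TKO DNA (chr1:167758652-167758939) and 1725 in SssI DNA.

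Scores were set against those of peaks with a tract. In TKO DNA the members scored higher, with a median of 320 against 191 for the 14039 peaks with a tract. The members were also wider, with a median of 297 bp against 251 bp. Over peaks no wider than the 90th percentile of the list, the medians were 195 and 163. In SssI DNA the median of the members was lower, 80 against 109, at nearly equal widths of 194 and 196 bp.

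Medians hid the shape of the distribution. When the TKO peaks were ranked by score and divided into deciles, members made up 110 of the 1456 peaks in the highest decile (7.55%, interval 6.31 to 9.03%), 68 (4.67%) in the second, and between 1.92% and 3.57% in the others. In the highest hundredth, 28 of 145 TKO peaks (19.3%, 13.7 to 26.5%) held no tract. SssI members gathered at both ends: they made up 2.09% of the highest decile (1.88 to 2.31%), 0.780% of the fifth decile and 3.00% of the lowest (2.75 to 3.26%). In the highest hundredth of the SssI list, 74 of 1692 peaks (4.37%, 3.50 to 5.46%) were members.

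**Figure D3:**
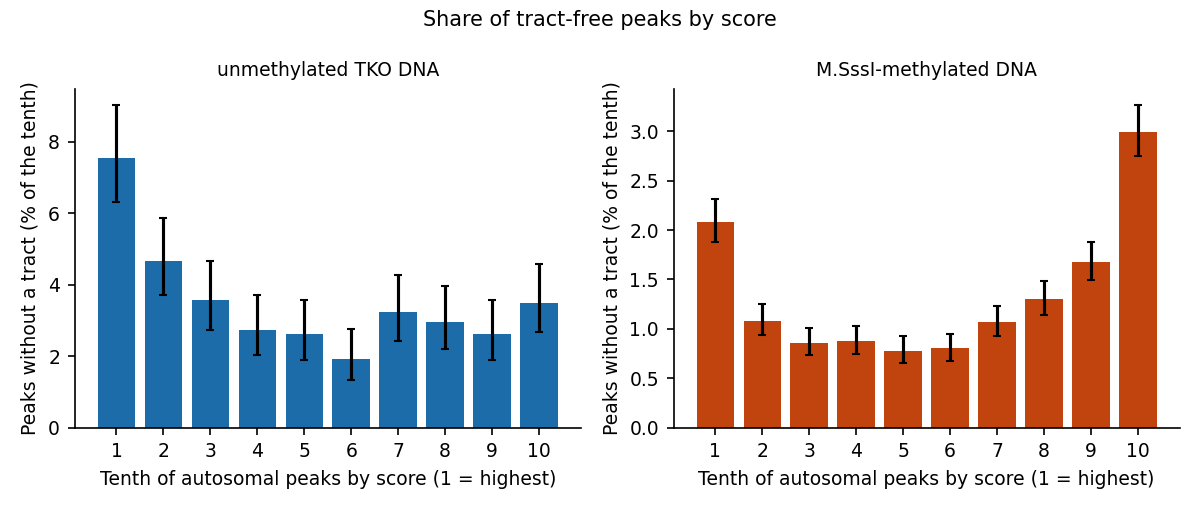
Share of autosomal peaks that hold no tract, in percent (y axis), by decile of the list ranked by score from the highest (x axis), for TKO DNA (left) and SssI DNA (right). Bars are shares and error bars 95% Wilson intervals over peaks. The highest decile stands at 7.55% in TKO DNA, and the SssI shares fall from 2.09% to 0.780% in the fifth decile and rise to 3.00% in the lowest.

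The members at the 2 ends of the SssI list differed in sequence. In the highest decile, 81.6% of the 353 members held CACACT and 87.8% were long-unit repeats. In the lowest decile, 38.5% of the 507 members held CACACT and 51.1% were long-unit repeats. Over the TKO list the share with CACACT moved from 90.0% of the 110 members in the highest decile to 62.7% of the 51 members in the lowest.

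Scores also went with the number of copies. TKO members with no CACACT had a median score of 152, those with 1 to 2 copies 278, those with 3 to 5 copies 227.5, those with 6 to 9 copies 438 and those with 10 or more 1139. SssI members had medians of 54, 73, 126, 447 and 806 in the same classes. Peak width rose along with copies, from a median of 174 bp in SssI members with none to 598.5 bp in those with 10 or more, and the part of width in the scores was not tested. The TKO order was not strict, since the class of 3 to 5 copies lay below that of 1 to 2, and the quartiles of neighbouring classes overlapped in both lists.

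**Figure D4:**
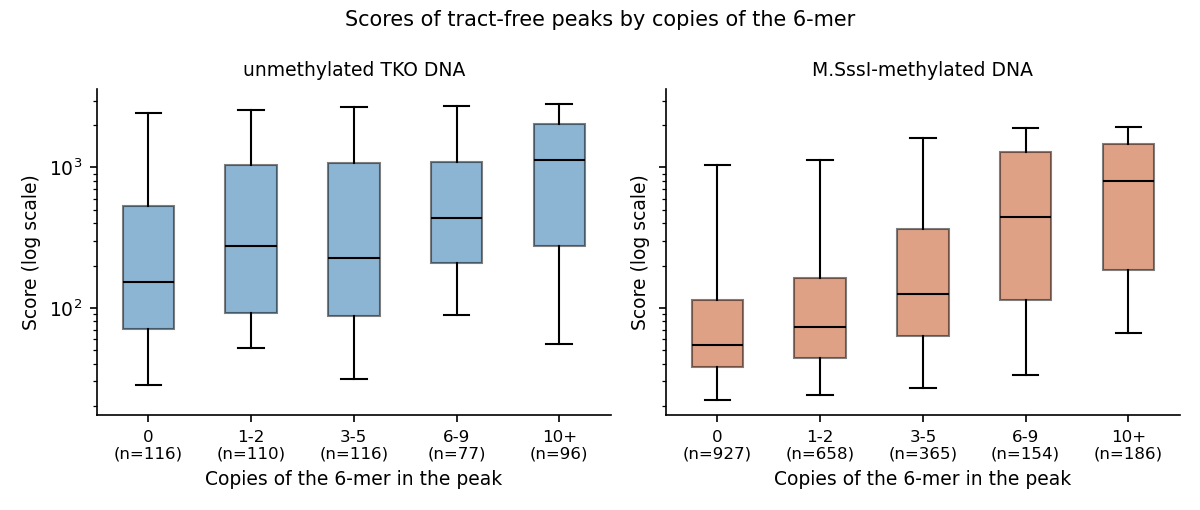
Score on a log scale (y axis) of peaks without a tract, by the number of copies of CACACT or AGTGTG in the peak (x axis), for TKO DNA (left) and SssI DNA (right). Boxes span the quartiles with the median as a line, whiskers run from the 5th to the 95th percentile, and the medians of the class with 10 or more copies are 1139 and 806.

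The same word was then looked for across the autosomes, away from any tract. It had been chosen from the members, and the clusters counted under a peak can lie in those members. The shares are therefore no independent check of the word. Copies of CACACT or AGTGTG no more than 100 bp apart were joined into clusters, and clusters with a tract within 100 bp were left out. Single copies numbered 1226394, of which 119 (0.00970%) lay under a TKO peak and 1198 (0.0977%) under an SssI peak. The shares grew with the copies: 0.502% and 2.59% of the 8564 clusters of 3 copies, 7.19% and 16.2% of the 320 clusters of 5, and 22.0% and 43.5% of the 186 clusters of 20 or more. Intervals for the last class were 16.7 to 28.5% and 36.6 to 50.7%.

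**Figure D5:**
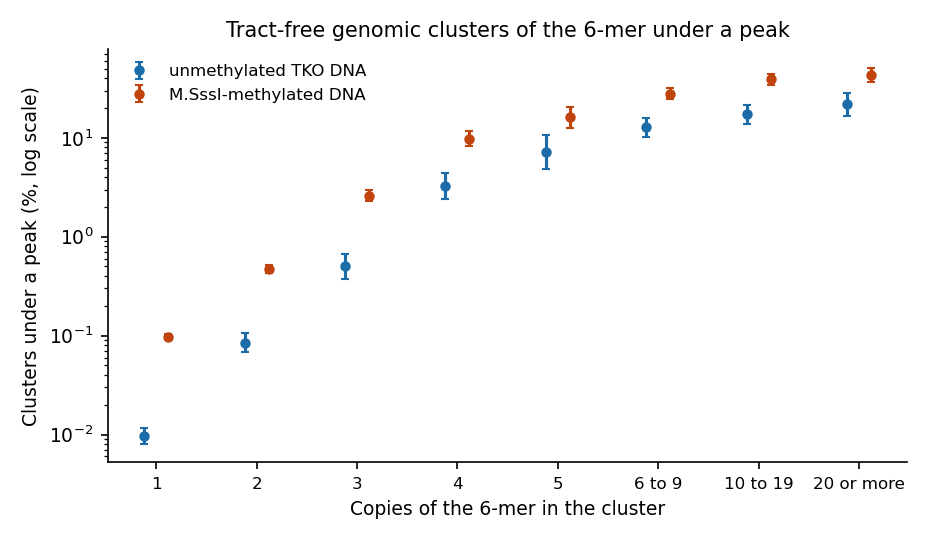
Share of tract-free genomic clusters that lie under a peak, in percent on a log scale (y axis), by the copies of CACACT or AGTGTG in the cluster (x axis). Blue points are TKO DNA, orange points SssI DNA, and bars are 95% Wilson intervals over clusters. The share rises in every step of both lists, from 0.00970% and 0.0977% to 22.0% and 43.5%.

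Most clusters of many copies lay outside both lists. Longer clusters cover more sequence and have more room to meet a peak, with a median length of 6 bp for single copies and 900 bp for 20 or more. How many could not be mapped by reads, or were removed with blacklisted regions, was not tested.

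TKO members were nearly all found again in SssI DNA. Of 515, 493 overlapped an SssI peak by at least 1 bp (95.7%, interval 93.6 to 97.2%), where 99.4% of all autosomal TKO peaks did. In 442 of the 493 the SssI peak was itself a member, and in the other 51 it held a tract, with a median longest run of 19 bp. The SssI peak was the wider in 50 of those 51. It was also the wider in 381 of the 442 pairs of members, at median widths of 475.5 bp in SssI and 315 bp in TKO DNA. An SssI peak over several TKO members counts in each of its pairs. Over the 442 pairs, the SssI peaks lay at a median of 4.96% from the top of their list and the TKO peaks at 32.7%. In 312 pairs (70.6%) the SssI peak was in the highest decile of its list. Sharing also fell with score among SssI peaks with a tract, from 69.7% in the highest decile to 10.4% in the second. A high place of shared SssI peaks is therefore not particular to the members.

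SssI members were shared more often than the rest of their list. Of 2290, 424 overlapped a TKO peak (18.5%, interval 16.98 to 20.2%), where 8.47% of all autosomal SssI peaks did, and 423 of these TKO peaks were members. The shares moved with the score: 85.6% of the 353 members in the highest decile were shared, against 69.7% of the peaks with a tract there, and in the second decile 38.8% against 10.4%. From the fourth decile down the members' share was at most 6.76%. The 424 shared members had a median score of 1172 and the 1866 others a median of 64.

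Shared and unshared SssI members differed in content as well. CACACT was present in 82.1% of the shared (interval 78.1 to 85.4%) and 54.4% of the unshared (52.1 to 56.6%), and at least 3 copies in 59.9% and 24.2%. Members with no CpG were 12.7% of the shared and 41.1% of the unshared. Of the 821 SssI members without a CpG, which M.SssI cannot methylate, 6.58% were shared, and of the 265 with 6 or more, 43.8% were. The latter were wider, at a median of 386 bp against 166 bp, and scored higher, at 604 against 54, and the parts of CpGs, width and score were not separated. In TKO DNA the share found in SssI DNA was between 95.1% and 97.01% in every CpG class.

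The 22 TKO members without an SssI peak were weak. Their highest score was 219, at intergenic chr9:76440500-76440737, and their median was 70. CACACT was present in 7 of them. The highest SssI member without a TKO peak lay in an intron of Unc80, which codes for a subunit of a neuronal sodium leak channel, at chr1:66496478-66497015. It scored 2115, ranked 319, and was an exact array without any of the 3 marked words. The SssI members below it include the highest-scoring short-unit repeat, intergenic chr3:55007050-55007583, with a score of 1966 and a run of the unit AGTG.
Unc80 intron, chr1:66496808-66496944: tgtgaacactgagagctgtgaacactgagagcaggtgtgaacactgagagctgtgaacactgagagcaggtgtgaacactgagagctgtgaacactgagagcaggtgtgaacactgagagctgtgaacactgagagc
intergenic, chr3:55007387-55007416: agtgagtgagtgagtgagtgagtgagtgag
intergenic TKO member without an SssI peak, chr9:76440571-76440590: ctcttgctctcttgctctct

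Short-unit repeats mostly scored low in the SssI list. Pooled over rotations and strands, the commonest units were AG in 56 members, ACACAG in 53, ACAG in 23 and ACTC in 15. Median scores were 39 for AG, 52 for ACACAG, 39 for ACAG and 69 for ACTC, against 80 for all SssI members. Of these 4 kinds, only 1 member, an ACTC repeat, overlapped a TKO peak. Only 3 members had the unit AACACT, but they scored 406, 692 and 1517. Units that contain a CACACT read across the junction, ACACTC, stood in 7 members with a median of 101 and a highest score of 1418. The latter overlapped the highest TKO short-unit repeat, at intergenic chr13:32834975-32835611, which scored 2684 and held 20 copies of CACACT, and part of it is printed here.
chr13:32835383-32835406: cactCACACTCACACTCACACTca

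The members lay partly near the boundary that defined them. A longest run of 11 bp, just under the minimum, was found in 80 TKO members with a median score of 283, and a longest run of 12 bp, just over it, in 50 TKO peaks with a median of 400. In SssI DNA the numbers were 456 with a median of 84 and 309 with a median of 73. An alternating stretch of 16 bp with 1 break was present in 16.9% of TKO and 20.3% of SssI members, and in 2.80% and 1.90% of the windows. The highest-scoring SssI member classed by such a stretch lay in an intron of Dpp6, an auxiliary subunit of potassium channels, at chr5:26984290-26984678, and scored 1625 with no TKO peak.

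Few members had a tract just outside the peak. A tract lay within 100 bp of an edge in 58 TKO members (11.3%, interval 8.81 to 14.3%) and 345 SssI members (15.1%, 13.7 to 16.6%), and in 9.31% and 9.51% of the windows. The median distance to the nearest tract was 613 bp in TKO members and 653.5 bp in SssI members, against 819 and 815 bp from the windows. Sonicated fragments were about as long as a peak, so a captured fragment may reach past the edges of its peak, and this was not measured by the lists.

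The members differed from peaks with a tract in repeat masking. In TKO members a median of 6.30% of bases was soft-masked in the reference, against 79.0% in peaks with a tract and 19.9% in the windows. In SssI members the medians were 25.1%, 58.2% and 19.6%. Median GC content was 48.3% and 49.2% in the members, 45.2% and 44.3% in peaks with a tract, and 42.1% and 42.3% in the windows. The median number of CpGs per member was 2 in TKO and 1 in SssI DNA, the same as in peaks with a tract and in the windows.

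Members were seldom made mostly of sequence present in 100 or more exact copies. Counts of exact copies miss diverged copies of interspersed repeats. In 29.1% of TKO and 31.05% of SssI members, more than 50% of the 31-mers recurred elsewhere in the genome or in the same array. The shares of the windows were 14.9% and 15.6%. Among peaks with a tract they were 27.7% in TKO DNA and 8.53% of the 8350 counted in SssI DNA. The TKO share was therefore not particular to the members. With a minimum of 100 copies the members' shares were 1.55% and 4.41%, against 6.05% and 6.81% of the windows. Among peaks with a tract the shares were 6.77% in TKO DNA and 2.46% of those counted in SssI DNA. The members' share was thus the lower in TKO DNA and the higher in SssI DNA. The 101 SssI members with this minimum were mostly tandem repeats (63 long-unit and 34 short-unit). Some members share sequence with each other. Joining members with at least 10 31-mers in common gave 45 TKO members in 17 groups of up to 7, and 461 SssI members in 61 groups, the largest of 214, which are not independent of each other.

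By the GENCODE M21 annotation, 317 TKO members (61.6%, interval 57.3 to 65.7%) had their midpoint in an intron and 185 (35.9%) between genes. Of TKO peaks with a tract, 50.0% were in introns. SssI members were in introns in 1233 cases (53.8%, 51.8 to 55.9%) and between genes in 985 (43.0%), and 48.1% of the peaks with a tract that were placed, every 20th of them, were in introns. Coding sequence held the midpoint of 2 TKO members and 10 SssI members. It held that of 1 of 14039 TKO peaks with a tract and of 2 of the 8350 SssI peaks with a tract that were placed.

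The members in coding sequence, named after their values were seen, were few and mixed. In SssI DNA the highest was in Tnfrsf11b, which encodes osteoprotegerin, at chr15:54259773-54260075, with a score of 793 and 4 copies of CACACT. The member in Nlrc3 at chr16:3946403-3947163 scored 297, was a long-unit repeat and held 15 copies, and the one in Krtap10-10, a keratin-associated protein, scored 250 and held none. Those in Fbln5, Dync1h1, Peg3, Defa29 and Gm7861 scored 33 to 83. None of these 8 overlapped a TKO peak. In TKO DNA the member at chr15:97686230-97686662, with its midpoint in coding sequence of Rpap3, scored 1801, and 28.2% of its bases were coding.

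The remaining coding members lay on Zbtb43 itself. The TKO member at chr2:33453597-33455206 scored 3077 and ranked 52, with a width of 1610 bp. It covered all 1424 bp of coding exon chr2:33453700-33455123 and extended 103 bp before its start and 83 bp past its end. It held 45 CpGs, 2 copies of CACACT in opposite orientations and no exact repeat over 9 bp. SssI DNA gave a member of score 495 over 99.6% of the same exon (chr2:33453695-33455117), and a member of score 14 over the other coding exon, chr2:33462266-33462353, which a TKO peak with a tract of 12 bp and a score of 374 also covered. The protein on the beads was expressed from cloned Zbtb43, so that the coding exons are the part of the locus that a construct would share with the genome. The lists hold no reads, and genomic and construct DNA cannot be told apart from them.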

How the data were processed

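Per the methods, the authors aligned paired-end reads to mm10 with BWA 0.7.17, pooled the duplicates and called peaks with MACS2 2.2.7.1 against the MBP libraries. Column 5 of the deposited lists is the caller's whole-number score. Peak numbering has gaps, so some called peaks were removed before deposit. Counts of reads are not in the lists, so depth is unknown and no test across peaks was made. The 4 sperm libraries were not used here, and no column of another sample was present.

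Tracts, repeats and words were counted on GRCm38, the sequence of mm10, with starts read as 0-based, in Python 3.11.15 with numpy 2.4.6, pandas 2.3.3, scipy 1.17.1 and numba 0.67.0; the counting was tested on simulated sequences with known answers. Genes are those of GENCODE M21 over the midpoint. Words, repeat classes and members were chosen with earlier results of these data known. Named regions are, per list, the 5 highest-scoring members, the highest of each class, the highest without a peak of the other list and the highest with a tract-free counterpart. Others are said to be chosen afterwards. Alternatives covered the tract minimum, score, overlap, edge distance, repeat length and k-mer length.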

Additional observations from a re-analysis of the deposited data

How the results depend on the processing

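Of 76 alternative values, 48 stayed within 1.5 times the count or median reported, or within the interval of the share, and 28 moved. Each value is a single count, share or median without a direction, so none could reverse. A tract minimum of 16 bp gave 861 TKO and 4720 SssI members, and one of 24 bp 2089 and 14755. With an edge distance of 50, 200 or 500 bp, a flanking tract was found for 7.18%, 21.2% and 43.9% of TKO and 11.0%, 22.3% and 42.3% of SssI members. Exact repeats of 30 bp were held by 60.4% and 50.3%, those of 16 bp by 64.7% of SssI members, and with imperfect repeats the shares were 80.8% and 70.8%. Sequence repeated by 24-mers made up most of 35.0% and 38.6%, and with 100 copies of 31-mers most of 1.55% and 4.41%. Among TKO peaks up to the 90th percentile of width the members' median score was 195. SssI members were shared in 16.6% with 50% of the peak covered, 25.3% with scores of at least 50 in both lists, and 14.2% with a minimum of 16 bp. With scores of at least 50, SssI members had a flanking tract in 11.5%, repeated sequence in 27.9% and CACACT in 67.5%. Without repeats, CACACT was in 91.9% of TKO and 80.6% of SssI members. The alternatives for CACACT and for imperfect repeats were chosen after seeing the data. The cause of these shifts was not tested.

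No paired analysis was possible because the duplicates were pooled before peaks were called and no test was made. Leaving out each library in turn was not run, for the same reason. The lists hold no read counts, so what depth limits is unknown. The DNA, its methylation and the libraries all differ between the lists and cannot be told apart.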

Other observations

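On chromosomes X and Y, which were left out above, 4 of 140 TKO peaks (2.86%, interval 1.12 to 7.12%) and 63 of 6491 SssI peaks (0.971%, 0.759 to 1.24%) held no tract. Among the autosomes, the share of TKO peaks without a tract ran from 2.08% on chromosome 9 to 5.97% on chromosome 19. In SssI DNA it ran from 1.04% on chromosome 12 to 1.67% on chromosome 19. Chromosome 19 stood highest in both lists, with 25 of 419 TKO peaks and 70 of 4201 SssI peaks, and since 442 TKO members lie over SssI members, the lists are not independent here.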
